A study of Homo sapiens with 4 samples.

Results

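Long noncoding RNAs (lncRNAs) that are studied in glioma were followed in U251-MG, an established human glioma cell line: MALAT1, NEAT1, HOTAIRM1, HOTAIR, H19, MEG3, GAS5 and PVT1. They are the 8 genes of the deposited count table whose symbol is one of these names, out of 61806 genes in all. Counts were high enough to test 6 of them, among 17030 tested genes. HOTAIR and MEG3 were below the limit for testing and are described by their counts.

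RNA was sequenced in 4 libraries. In 2 of them the cells carried a lentiviral pCDH-CMV-MCS-EF1-puro vector with the COL8A1 coding sequence (COL8A1 1 and 2), and in the other 2 the negative control vector (NC 1 and 2). The labels give the genotype of every sample as wild type, and all 4 libraries share the parental line, the vector backbone and a lentiviral infection. Whether 2 libraries of a group are separate cultures or infections is not said, so each p-value below measures only the spread between libraries, which may be technical. The question asked of the comparison was how expression profiles differ between the vectors.

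LncRNAs are transcripts with no long open reading frame that act as RNA. Some build nuclear bodies, some guide chromatin complexes to genes or soak up microRNAs, and some are mainly hosts from which small RNAs are cut. MALAT1 and NEAT1 are the RNAs of nuclear speckles and paraspeckles. HOTAIRM1 and HOTAIR are transcribed from the HOXA and HOXC clusters, which most glial cells of the adult brain keep silent and many gliomas reactivate. H19 and MEG3 are imprinted. GAS5 hosts small nucleolar RNAs and accumulates in cells whose growth is arrested, and PVT1 lies beside MYC and is often amplified with it.

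Short stretches of 5 of these genes are shown first, because they carry what sets each RNA apart, with the capitals explained after them. MALAT1 and NEAT1 lack an ordinary poly(A) tail at the end of their long forms. The end is cut by RNase P upstream of a tRNA-like small RNA and is then closed by a triple helix of U-rich and A-rich runs. The MALAT1 stretch (chr11:65505997-65506173, plus strand, GRCh38, GENCODE 29) covers these runs and ends with the tRNA-like small RNA gene, and the NEAT1 stretch (chr11:65445421-65445540, plus strand) is the last 120 bases of the gene.
MALAT1 3′ end: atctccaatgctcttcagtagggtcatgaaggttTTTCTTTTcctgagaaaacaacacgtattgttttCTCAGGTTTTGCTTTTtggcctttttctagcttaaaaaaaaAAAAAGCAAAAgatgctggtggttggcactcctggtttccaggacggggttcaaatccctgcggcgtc
NEAT1 3′ end: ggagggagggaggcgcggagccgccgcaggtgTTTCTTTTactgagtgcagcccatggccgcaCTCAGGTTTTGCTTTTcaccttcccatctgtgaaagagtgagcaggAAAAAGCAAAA
The capitals mark the 3 runs of 8 or more identical bases that both ends share: TTTCTTTT, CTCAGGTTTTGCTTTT and AAAAAGCAAAA. Searched on the transcript's own strand in the last 120 bases of 29519 lncRNA transcripts of GENCODE 29, TTTCTTTT was found in 1.63%, AAAAAGCAAAA in 0.0542% and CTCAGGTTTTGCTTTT in 1 transcript (0.00339%), the one of NEAT1. The runs were taken from the 2 ends shown, so the NEAT1 match was given in advance. The annotated MALAT1 gene ends at 65506516, past the stretch shown, and this search did not find its copy. The method of RNA selection before sequencing is not given in the sources used here, so what share of these 2 RNAs the libraries could capture is not known.

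GAS5 is shown by its first 30 bases (chr1:173867960-173867989, minus strand, GENCODE 29), because a start in C followed by pyrimidines is the mark of the growth-regulated 5′ TOP class of RNAs. The capitals are the first 6 bases.
GAS5 start: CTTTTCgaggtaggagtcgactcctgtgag
A start of C and then 4 pyrimidines was found in 6 of 29 GAS5 transcripts (20.7%), the one shown among them, against 736 of 29566 lncRNA transcripts (2.49%). The 29 are isoforms of the same gene and can share a start, so these shares are a description only.

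MEG3 is shown by a promoter window of RefSeq (GRCh38.p14, chr14:100825858-100826157, plus strand), since this gene was near 0 in these cells. The capitals are TGACGTCA, the cAMP response element known from this promoter, 50 bases before the start, and TATAAA, 18 bases before it.
MEG3 promoter: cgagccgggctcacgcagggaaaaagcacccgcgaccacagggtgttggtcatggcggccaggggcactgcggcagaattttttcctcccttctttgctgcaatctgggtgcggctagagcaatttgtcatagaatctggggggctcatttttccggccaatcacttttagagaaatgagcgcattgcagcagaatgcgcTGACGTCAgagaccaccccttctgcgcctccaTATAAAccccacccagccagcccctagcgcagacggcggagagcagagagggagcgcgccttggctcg
Searched on both strands, TGACGTCA was in 649 of 35116 RefSeq promoter windows of the same 300 bases (1.85%) and TATAAA in 4049 (11.5%). A match is a description of the letters and not evidence of binding.

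H19 carries a microRNA hairpin in its first exon. The arms cut from it (RefSeq, chr11:1996800-1996822 and chr11:1996768-1996787, minus strand) are given with the seed, bases 2 to 8, in capitals.
miR-675-5p: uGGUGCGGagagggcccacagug
miR-675-3p: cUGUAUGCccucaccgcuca
The seeds of the arms differ. The values for H19 below are those of the long transcript.

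Total counts ran from 27923796 to 33576228 per library, and 22764 to 23546 genes had counts. The overexpressed gene checked the labels: COL8A1 stood at 2.51 and 2.43 counts scaled to library size (CPM) in NC and at 135 and 81.3 CPM in COL8A1 (edgeR log2 fold change 5.45, adjusted p = 0.0681). The glial and glioma markers summed to between 4704 and 5221 CPM in NC and between 4950 and 5795 CPM in COL8A1, with 2 of the 12, AQP4 and OLIG2, at 0. VIM alone gave 2595 to 3142 CPM of these sums. GFAP, the astrocyte filament, was low at 0.684, 0.563, 2.04 and 1.83 CPM in NC 1, NC 2, COL8A1 1 and COL8A1 2 (log2 fold change 1.63, SE 0.346, edgeR adjusted p = 0.580). Of the 9 glial and glioma markers tested, 8 had a log2 fold change above 0 and 1 below, with a median of 0.18 against 0.00 over all tested genes, and 0 passed an adjusted edgeR p of 0.05, as 0.0117% of all genes did. Both COL8A1 values lay above both NC values in 4 of the 9 (18.9% of all genes) and below in 0 (18.6%). GFAP and the glial transcription factor SOX9 (0.24, edgeR adjusted p = 0.690) had an unadjusted edgeR p under 0.05 with higher values in COL8A1, as 3.44% of all genes did. The part of these markers in the values of the lncRNAs was not tested. The 13 markers of other cell types summed to 468 to 552 CPM in NC and 513 to 579 CPM in COL8A1, with AIF1 and MOG at 0. Of these, 5 averaged at least 1 CPM. Over the 4 libraries they were the epithelial KRT8 (263 to 399 CPM) and KRT18 (88.2 to 120), the endothelial CDH5 (60.1 to 78.2), the neuronal SYT1 (21.3 to 28.7) and the myeloid CD68 (3.36 to 5.54). LncRNA genes of GENCODE 29 took 0.972% to 1.03% of all counts, and the 8 genes described here 2.61% to 3.04% of those.

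No lncRNA of the set was called different between the vectors, and the fitted log2 fold changes ran from -0.28 (H19) to 0.49 (HOTAIRM1). Of the 6 that could be tested, 0 passed an adjusted p of 0.05 in edgeR's quasi-likelihood test, where 0.0117% of all tested genes did, and 0 in DESeq2, where 1.06% did. The edgeR test did not call the overexpressed COL8A1 either (log2 fold change 5.45, edgeR adjusted p = 0.0681). A lack of calls with 2 libraries per group therefore does not show that levels were equal. GAS5 alone, 1 of 6, had an unadjusted edgeR p under 0.05, which 6.07% of all tested genes had. Its values were lower in COL8A1, as in 2.63% of all genes, and no lncRNA of the set had such a p with higher values, as 3.44% of all genes did. The log2 fold change was below 0 in 5 of the 6 and above 0 in HOTAIRM1, with a median of -0.12, against 49.8% below 0 and a median of 0.00 over all tested genes. The groups did not overlap in 2 of the 6, GAS5 and HOTAIRM1, against 37.5% of all tested genes. In bulk RNA, fewer cells with a transcript and less transcript per cell cannot be told apart.

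**Figure D1:**
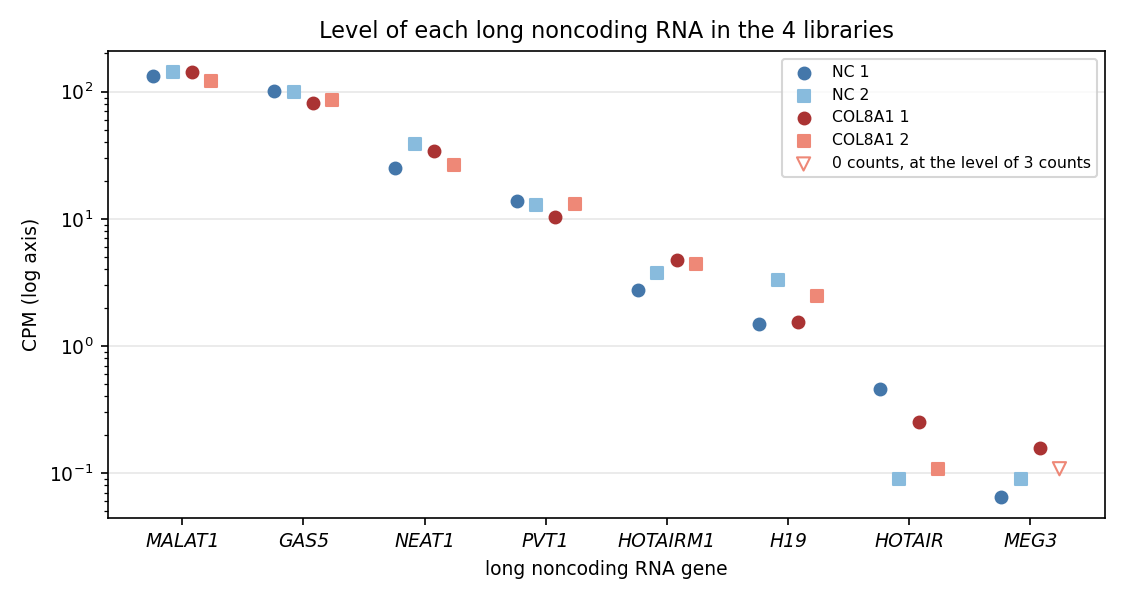
Level of the 8 lncRNAs in each library, in CPM on a log axis, with blue for NC and red for COL8A1 and an open triangle for a library with 0 counts, placed at the level of 3 counts (0.108 CPM). MALAT1 and GAS5 lie near 100 CPM, HOTAIR and MEG3 below 1 CPM, and within most genes the 2 colours interleave.

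Per kilobase of exon, GAS5 had the highest counted level of the set and MEG3 the lowest. These levels are CPM divided by the merged exon length in GENCODE 29, averaged over the 4 libraries. GAS5 stood at 25.4 CPM per kb (library range 22.4 to 28.0), which was rank 22 of 15790 counted lncRNA genes. MALAT1 followed at 15.3 CPM per kb (13.8 to 16.2), at rank 35. Before division by length the order of these 2 was the reverse, with MALAT1 at 122 to 143 CPM and GAS5 at 81.4 to 102 CPM. HOTAIRM1 at 2.61 CPM per kb (1.85 to 3.15) and PVT1 at 2.28 (1.89 to 2.51) had overlapping ranges, so their order is not separated by the spread. NEAT1 at 1.37 CPM per kb (1.09 to 1.70) and H19 at 0.760 (0.517 to 1.15) overlapped as well. HOTAIR at 0.0869 CPM per kb and MEG3 at 0.00335 were below all others in every library. The lengths merge all annotated isoforms, so a gene whose short isoform dominates is understated: the merged exons of NEAT1 measured 22767 bases and those of MEG3 23224 bases. The RNA selection and the counting strand are not known. The ranks of MALAT1 and NEAT1, and the order of GAS5 and MALAT1, are therefore those of the counts and may not be those of the RNAs.

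MALAT1 (ENSG00000251562, chr11:65497688-65506516, plus strand) is a single-exon nuclear RNA that gathers at speckles, where splicing factors are stored, and is known for its role in cell migration in several cancers. Its counts were 4059 in NC 1, 4822 in NC 2, 4540 in COL8A1 1 and 3390 in COL8A1 2. On the CPM scale these were 132, 143, 143 and 122. NC 2 and COL8A1 1 were nearly equal at the top and COL8A1 2 was the lowest, so the groups overlapped. The means were 138 ± 7.56 CPM in NC and 132 ± 14.7 CPM in COL8A1 (SD, n = 2). The edgeR log2 fold change was -0.06 (SE 0.104, 95% interval -0.33 to 0.22, adjusted p = 0.943), and it was 0.049 without COL8A1 2.

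NEAT1 (ENSG00000245532, chr11:65422774-65445540, plus strand) is the scaffold of paraspeckles, nuclear bodies that hold back edited RNAs and certain proteins, and its long form is needed for them. Counts do not separate it from the short polyadenylated form. NEAT1 had 765 counts in NC 1, 1302 in NC 2, 1091 in COL8A1 1 and 743 in COL8A1 2, or 24.9, 38.6, 34.3 and 26.7 CPM. Both COL8A1 libraries lay between the NC libraries. The libraries of NC differed 1.55-fold from each other and those of COL8A1 1.28-fold, while the group means were 31.8 ± 9.67 and 30.5 ± 5.35 CPM (SD, n = 2). The edgeR log2 fold change of -0.06 (SE 0.254, 95% interval -0.73 to 0.61, adjusted p = 0.982) became 0.29 without NC 2 and 0.11 without COL8A1 2.

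NC 2 and COL8A1 1 were the higher library of their group for both MALAT1 and NEAT1, which lie near each other on chromosome 11. These were also the libraries of their group with the larger total count and more genes with counts. For comparison, the median absolute log2 difference between replicates over 11277 genes of at least 5 CPM was 0.11 in NC and 0.14 in COL8A1, with a 90th percentile of 0.44 and 0.47. NEAT1 differed by 0.63 in NC, above that percentile, and by 0.36 in COL8A1, below it. The part of depth or RNA quality in this was not tested.

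**Figure D2:**
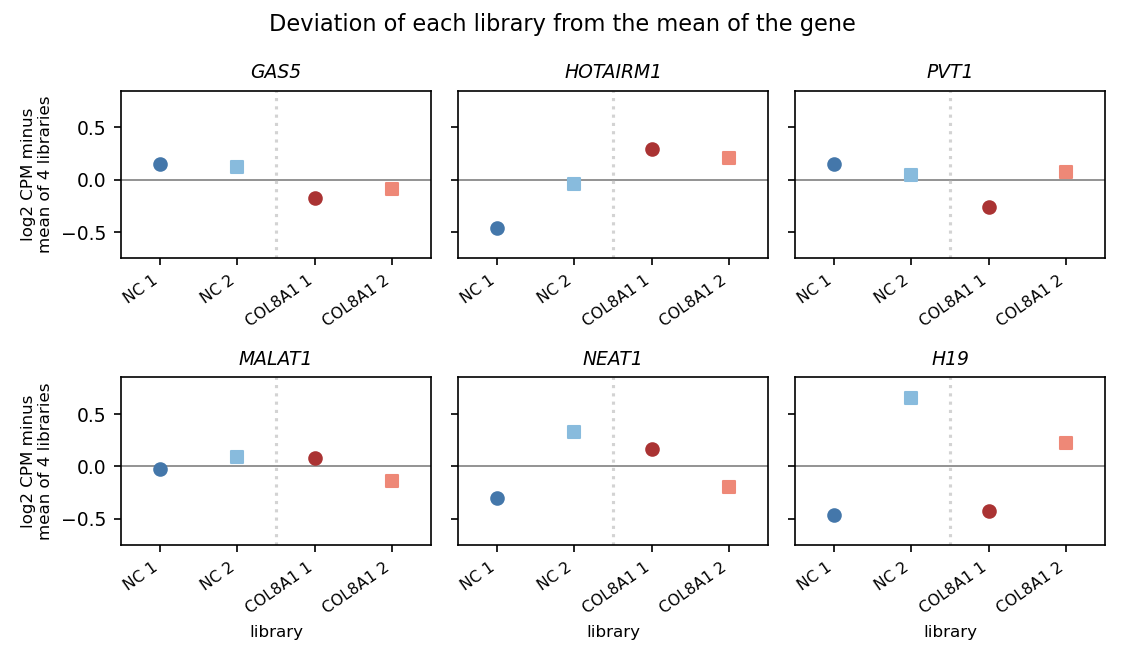
Deviation of each library from the gene's mean, as log2 CPM minus the mean of the 4 libraries, for the 6 tested lncRNAs, with NC left of the dotted line and COL8A1 right of it. GAS5 and HOTAIRM1 separate the groups, MALAT1 and NEAT1 are high in NC 2 and COL8A1 1, and H19 is high in the second library of each group.

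The proteins that share these nuclear bodies were measured with them. Of 26 paraspeckle proteins, 9 had a log2 fold change above 0 and 17 below, with a median of -0.02, and of 24 nuclear speckle proteins 12 and 12, with a median of 0.00. No member of either list passed the adjusted p in edgeR or DESeq2. RBM12, an RNA-binding protein found in paraspeckles, was the only one of the 50 with an unadjusted edgeR p under 0.05, against 6.07% of all tested genes. It stood at 29.9 and 37.3 CPM in NC and 26.1 and 17.6 CPM in COL8A1 (log2 fold change -0.62, SE 0.233, edgeR adjusted p = 0.816). Both COL8A1 values lay below both NC values, as did those of HNRNPA1 (-0.20), HNRNPR (-0.12), the splicing regulator TRA2A (-0.27) and the SR protein SRSF2 (-0.21). RBM14 (0.24), the kinase CLK4 (0.38) and SRSF4 (0.25) had both COL8A1 values above both NC values. Such a separation of the groups in either direction is the one that 37.5% of all tested genes had. That of RBM14 was small in COL8A1 2, with 71.2 and 70.7 CPM in NC and 96.5 and 71.5 CPM in COL8A1. Its log2 fold change was 0.01 without COL8A1 1.

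The 3′ end that the sequences above show is made by RNase P, whose subunits were followed together with the related RNase MRP RNA, ELAC2 and METTL16. Of these 15 genes, 13 had a log2 fold change below 0 and 2 above, with a median of -0.24. In this list 0 were called, against 0.0117% of all tested genes in edgeR and 1.06% in DESeq2. The groups did not overlap in 7 genes with COL8A1 lower and in 1 with COL8A1 higher, where 18.6% and 18.9% of all genes did so. RPP25L, a subunit homolog, stood at 13.2 and 15.1 CPM in NC and 10.3 and 9.79 CPM in COL8A1 (log2 fold change -0.49, SE 0.144, edgeR adjusted p = 0.724). The RNA component of RNase MRP, RMRP, had 65 and 67 counts in NC and 33 and 36 in COL8A1 (-0.81, SE 0.310, edgeR adjusted p = 0.816). RPPH1, the RNA of RNase P itself, had 27 and 29 counts in NC and 5 and 14 in COL8A1 (-1.40, SE 0.677, edgeR adjusted p = 0.835). ELAC2, which trims the tRNA-like product, was closer between the groups, with a log2 fold change of -0.14 (SE 0.072). Both RNA components are short, and how RNA was selected by size is not given in the sources used here. The median of the list was -0.08 when COL8A1 1 was left out.

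GAS5 (ENSG00000234741, chr1:173863900-173868882, minus strand) came closest to a difference between the vectors. Its exons carry little protein-coding capacity, its introns carry box C/D small nucleolar RNAs, and the spliced RNA is a substrate of nonsense-mediated decay that also binds the glucocorticoid receptor. GAS5 had 3122 and 3371 counts in NC 1 and 2 and 2589 and 2397 in COL8A1 1 and 2. The CPM were 102 and 99.9 in NC and 81.4 and 86.2 in COL8A1, so both COL8A1 libraries were lower than both NC libraries. Replicates lay close together, 1.02-fold apart in NC and 1.06-fold in COL8A1. The means were 101 ± 1.27 CPM in NC and 83.8 ± 3.42 CPM in COL8A1 (SD, n = 2), a ratio of 0.831. The edgeR log2 fold change was -0.27 (SE 0.075, 95% interval -0.46 to -0.07, adjusted p = 0.700), and the adjusted p was 0.471 in DESeq2. Among all genes, 18.6% had both COL8A1 libraries below both NC libraries, and among the 2327 tested lncRNA genes 15.5%. The log2 fold change stayed between -0.31 and -0.23 when each library was left out in turn, but the unadjusted edgeR p was no longer under 0.05 without NC 1, NC 2 or COL8A1 1.

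**Figure D3:**
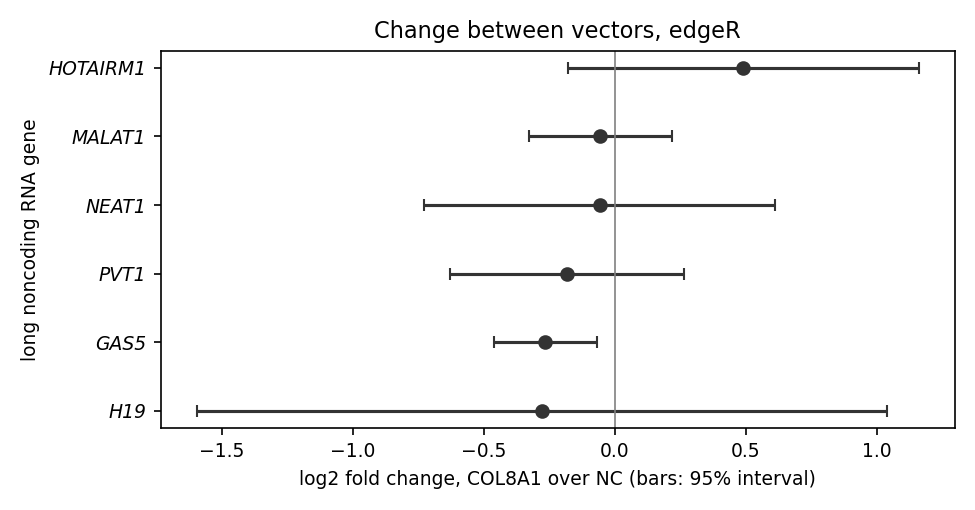
Log2 fold change of COL8A1 over NC for the 6 tested lncRNAs from edgeR, with bars for the 95% interval. The interval of GAS5 (-0.46 to -0.07) lies below 0 before adjustment for the number of genes, and the other 5 include 0.

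Genes tied to the decay, the introns and the locus of GAS5 gave the following. Of 19 nonsense-mediated decay genes, 6 had a log2 fold change above 0 and 13 below, with a median of -0.06. In this list 0 were called, against 0.0117% of all tested genes in edgeR and 1.06% in DESeq2. The groups did not overlap in 8 of the 19 with COL8A1 lower and in 2 with COL8A1 higher. Among all tested genes the shares were 18.6% and 18.9%. The 4 of the 19 with the smallest p were GSPT1, a translation termination factor (0.15), and the exon junction proteins MAGOHB (-0.20), EIF4A3 (-0.14) and RBM8A (-0.40). RBM8A stood at 207 and 198 CPM in NC and 194 and 112 CPM in COL8A1. Its log2 fold change ran from -0.86 to -0.06 when each library was left out in turn. The 10 small nucleolar RNAs of the host were represented by SNORD79 and SNORD81 only, whose rows were at 0 in every library, so nothing can be read about them here. The antisense gene GAS5-AS1 shares 42 exonic bases with GAS5 on the other strand and had 11, 14, 14 and 12 counts, or 0.352% to 0.541% of the GAS5 count. The counting strand is not given in the sources used here, and reads of antisense partners cannot be told apart without it. ZBTB37, a zinc finger gene on the opposite strand whose start lies inside the annotated GAS5 locus, had 46.0 and 41.9 CPM in NC and 40.9 and 44.5 CPM in COL8A1 (log2 fold change -0.04), so its groups overlapped.

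PVT1 (ENSG00000249859, chr8:127794533-128101253, plus strand) is a multi-exon RNA downstream of MYC that hosts several microRNAs. Its counts were 423 in NC 1, 434 in NC 2, 330 in COL8A1 1 and 364 in COL8A1 2, or 13.8, 12.9, 10.4 and 13.1 CPM. COL8A1 2 lay between the NC libraries and COL8A1 1 below both, so the groups overlapped. The means were 13.3 ± 0.649 and 11.7 ± 1.92 CPM (SD, n = 2), and the edgeR log2 fold change was -0.18 (SE 0.169, 95% interval -0.63 to 0.26, adjusted p = 0.877). Without COL8A1 1 it was -0.02, so the difference in means rested on that library.

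MYC, the growth transcription factor 53.1 kb upstream, did not follow PVT1. It had 40.9 CPM in NC 1 but 11.5 in NC 2, and 38.2 and 39.97 CPM in COL8A1, while PVT1 in NC 2 was 12.9 CPM and near its other values. The edgeR log2 fold change of MYC was 0.58 (SE 0.590, adjusted p = 0.888), with NC 2 alone low. Of 30 genes of the MYC network, 11 had a log2 fold change above 0 and 19 below, with a median of -0.08. In this list 0 were called, against 0.0117% of all tested genes in edgeR and 1.06% in DESeq2. NOP56, a core protein of the box C/D small nucleolar particles that GAS5 introns supply, stood at 161 and 156 CPM in NC and 129 and 115 CPM in COL8A1 (-0.38, SE 0.086, edgeR adjusted p = 0.605). The ribosome biogenesis gene WDR43 (-0.23), the polyamine enzyme ODC1 (-0.38) and the nucleolar chaperone NPM1 (-0.16) also had both COL8A1 libraries below both NC libraries. These genes were named for having the smallest p-values of the list. In all 30 genes, the groups did not overlap in 9 with COL8A1 lower and in 2 with COL8A1 higher. Among all tested genes the shares were 18.6% and 18.9%.

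HOTAIRM1 (ENSG00000233429, chr7:27095647-27100265, plus strand) is transcribed from the HOXA cluster against the direction of the HOXA genes and is known from myeloid differentiation and from glioma. It was the one tested lncRNA of the set whose log2 fold change was above 0. Counts were 85 in NC 1, 126 in NC 2, 150 in COL8A1 1 and 123 in COL8A1 2, or 2.77, 3.73, 4.72 and 4.43 CPM. Both COL8A1 libraries were higher than both NC libraries, in which direction 18.9% of all genes had groups that did not overlap. The means were 3.25 ± 0.683 CPM in NC and 4.57 ± 0.206 CPM in COL8A1 (SD, n = 2), a ratio of 1.40. The edgeR log2 fold change was 0.49 (SE 0.254, 95% interval -0.18 to 1.16, adjusted p = 0.835). It was 0.29 without NC 1.

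Other records overlap the exons of HOTAIRM1. Inside its exons the annotation places small structured-RNA records on the same strand, of which RF01978 had 17, 27, 15 and 1 counts and RF01979 28, 43, 25 and 33. Added to HOTAIRM1, a sum chosen after seeing the data, the same-strand records gave 4.37, 5.90, 6.13 and 5.76 CPM, so that COL8A1 2 fell between the NC libraries and the groups overlapped, with a log2 fold change of 0.21.

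HOXA2 to HOXA6, on 1 side of HOTAIRM1, were measured at low levels, at most 5.19 CPM in a library. HOXA7 was higher, at 20.7 and 21.4 CPM in NC and 20.4 and 21.2 CPM in COL8A1 (log2 fold change -0.02). HOXA2, a HOX transcription factor, had 17 and 12 counts in NC and 31 and 29 in COL8A1 (log2 fold change 1.15, SE 0.467, edgeR adjusted p = 0.817). HOXA3 went the other way, with 4.72 and 2.99 CPM in NC and 2.99 and 2.81 in COL8A1 (-0.41). HOXA-AS3, another antisense RNA of the cluster, had 5 and 17 counts in NC and 37 and 50 in COL8A1 (2.12, SE 0.660, edgeR adjusted p = 0.747). It overlaps HOXA genes on the opposite strand, and without a known counting strand their reads cannot be told apart.

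HOTAIR (ENSG00000228630, chr12:53962308-53974956, minus strand), which was described as a guide of the Polycomb complex PRC2 and is raised in many high-grade gliomas, was barely present. It had 14 counts in NC 1, 3 in NC 2, 8 in COL8A1 1 and 3 in COL8A1 2, or 0.456, 0.0889, 0.252 and 0.108 CPM. The first library of each group was the higher one, and the groups overlapped. Summed over a group, 17 counts in NC gave 0.264 CPM (exact Poisson 95% interval 0.154 to 0.422) and 11 counts in COL8A1 gave 0.184 CPM (0.0921 to 0.330). These intervals overlap, but they cover counting error only and leave out the spread between libraries, such as 14 and 3 counts in NC. A difference in HOTAIR was not tested at this depth.

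The HOXC genes around HOTAIR were not silent. HOXC10 stood at 28.8 and 31.4 CPM in NC and 31.0 and 22.0 CPM in COL8A1, and HOXC6 at 9.97 and 9.96 against 10.2 and 4.71 CPM. HOXC11, whose locus HOTAIR overlaps on the other strand, had 0, 3, 0 and 3 counts, and HOXC12 had 0. Within the cluster, counts were thus at or near 0 from HOXC12 to HOXC11 and resumed at HOXC10, while HOXC13 on the far side stood at 3.68 and 3.71 CPM in NC and 3.55 and 2.77 CPM in COL8A1. Of 19 genes of PRC2 and the LSD1 complex, the partners described for HOTAIR, 9 had a log2 fold change above 0 and 10 below. Their median was 0.00. In this list 0 were called, against 0.0117% of all tested genes in edgeR and 1.06% in DESeq2. The histone chaperone RBBP4 had 179 and 173 CPM in NC and 244 and 203 CPM in COL8A1 (0.34, SE 0.107, edgeR adjusted p = 0.747). The LSD1 corepressor RCOR2 (0.45) and the PRC2 cofactor AEBP2 (0.17) also had both COL8A1 values above both NC values. In all 19 genes, the groups did not overlap in 4 with COL8A1 higher and in 2 with COL8A1 lower. Among all tested genes the shares were 18.9% and 18.6%.

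H19 (ENSG00000130600, chr11:1995176-2001470, minus strand) is expressed from the maternal allele in the embryo, is largely shut off after birth and returns in many tumours. It had 46 counts in NC 1, 112 in NC 2, 49 in COL8A1 1 and 68 in COL8A1 2, or 1.499, 3.32, 1.54 and 2.45 CPM. Both COL8A1 libraries lay between the NC libraries. The NC libraries differed 2.22-fold and the COL8A1 libraries 1.59-fold, which is more than the group means of 2.41 ± 1.29 and 1.99 ± 0.641 CPM (SD, n = 2) differed. The edgeR log2 fold change was -0.28 (SE 0.501, 95% interval -1.60 to 1.04, adjusted p = 0.942), and it was 0.40 without NC 2 and 0.02 without COL8A1 1. No direction can be given for H19.

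MEG3 (ENSG00000214548, chr14:100779410-100861031, plus strand), a maternally expressed RNA that raises p53 activity and is lost in many gliomas, was close to undetected. It had 2, 3, 5 and 0 counts in NC 1, NC 2, COL8A1 1 and COL8A1 2, or 0.0652, 0.0889, 0.157 and 0 CPM, and a count of 0 in COL8A1 2 allows up to 0.108 CPM. Each group summed to 5 counts, which gave 0.0776 CPM in NC (exact Poisson 95% interval 0.0252 to 0.181) and 0.0839 CPM in COL8A1 (0.0272 to 0.196). These intervals also cover counting error only. The groups overlapped, and a difference in MEG3 was not tested at this depth.

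The imprinted domains of both genes were quiet beyond them. In the MEG3 domain the paternally expressed DLK1 and the maternally expressed MEG8 and MEG9 were at 0 counts in every library, and RTL1 had 8, 4, 4 and 0. In the H19 domain the growth factor IGF2 had 0, 0, 0 and 8 counts, and IGF2-AS, INS, ASCL2, TNNT3 and MRPL23-AS1 had 0 throughout. MRPL23, a mitochondrial ribosomal protein gene 10.7 kb from H19, had 408, 656, 494 and 447 counts. Of 31 imprinted genes found in the table, 20 could be tested, with 9 above 0, 11 below and a median of -0.02. In this list 0 were called, against 0.0117% of all tested genes in edgeR and 1.06% in DESeq2. The groups did not overlap in 2 of the 20 with COL8A1 lower and in 4 with COL8A1 higher. Among all tested genes the shares were 18.6% and 18.9%. DIRAS3, an imprinted GTPase that restrains growth, stood at 16.03 and 13.5 CPM in NC and 10.1 and 7.05 CPM in COL8A1 (log2 fold change -0.78, SE 0.227, edgeR adjusted p = 0.724). PEG10, a retrotransposon-derived gene, was 515 and 483 CPM in NC and 588 and 542 CPM in COL8A1 (0.18, edgeR adjusted p = 0.816).

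Small RNAs that are cut from these transcripts left no usable signal. Of 8 microRNAs hosted by the set, 4 had any count, and none had more than 1 in a library. The row of miR-675, whose arms are shown above, read 1 in each of the 4 libraries. So did 323 genes of the table in all, 158 of them among its 1877 microRNA genes, and these rows are given here as counts only. For MALAT1 a record of its antisense RNA also had counts: TALAM1 had 244, 272, 291 and 224, or 5.64% to 6.61% of the MALAT1 count. Its CPM of 7.95, 8.06, 9.15 and 8.06 corresponded to 0.10 on the log2 scale (edgeR adjusted p = 0.932). Sense and antisense reads cannot be told apart here for the reason given for GAS5.

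**Figure D4:**
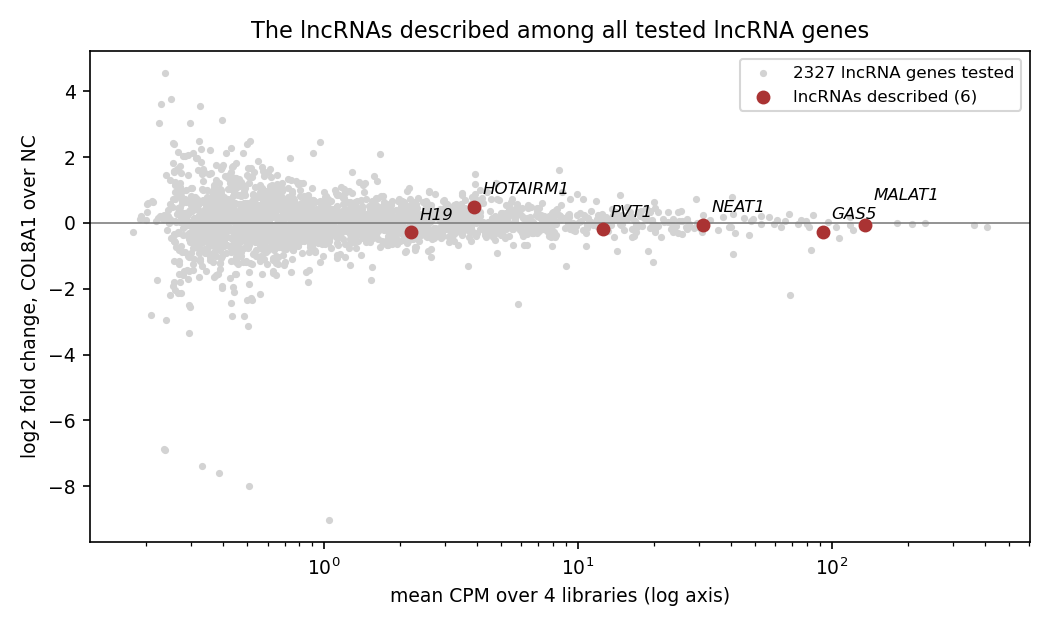
Log2 fold change of COL8A1 over NC against mean CPM on a log axis for 2327 tested lncRNA genes in grey, with the 6 tested lncRNAs described here in red. The 6 lie within the grey cloud, between -0.28 (H19) and 0.49 (HOTAIRM1).

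The set was also read against lncRNAs in general. Of 2327 tested lncRNA genes, 0 passed an adjusted p of 0.05 in edgeR and 10 in DESeq2 (0.43%), while 101 (4.34%) had an unadjusted edgeR p under 0.05, 1.68% with lower and 2.66% with higher values in COL8A1. The groups did not overlap in 34.2% of them, which sets the scale for the 2 of 6 above. Their log2 fold changes were above 0 in 1250 and below 0 in 1077, with a median of 0.05. A second list held 57 symbols of other lncRNAs named in glioma studies, of which 50 were found and 39 tested. In it 20 were above 0 and 19 below, the median was 0.05, and 0 were called by edgeR or DESeq2. LINC01116 had the smallest p, with 8.96 and 9.28 CPM in NC and 13.6 and 15.4 CPM in COL8A1 (log2 fold change 0.67, SE 0.142, edgeR adjusted p = 0.580). FOXD2-AS1 stood at 2.12 and 1.48 CPM in NC and 0.817 and 0.648 CPM in COL8A1 (-1.29, SE 0.387, edgeR adjusted p = 0.742), and DLEU1 at 10.5 and 8.18 against 7.04 and 6.84 CPM (-0.43).

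**Figure D5:**
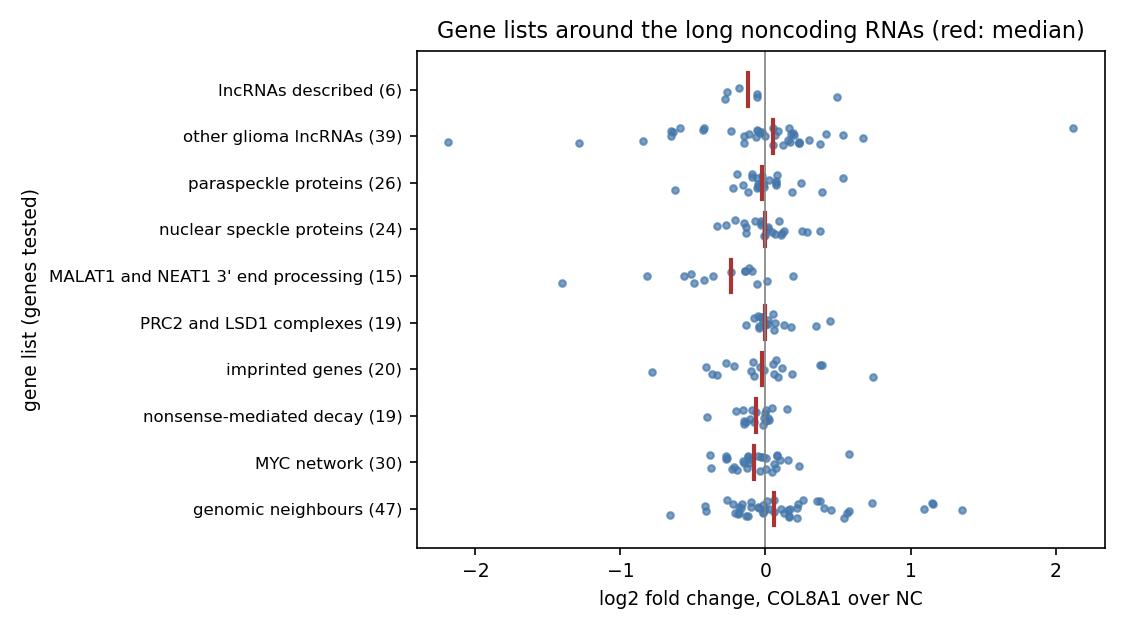
Log2 fold change of COL8A1 over NC for every tested gene of the lists plotted, which leave out the cell type markers, 1 point per gene, with the median of each list in red. Medians of these lists lie between -0.24 (3′ end processing of MALAT1 and NEAT1) and 0.06 (genomic neighbours), and no point passed the adjusted threshold.

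Genes beside the 8 lncRNAs gave no calls either. Of 63 neighbours found, 47 were tested, with 26 above 0, 21 below and a median of 0.06. An unadjusted edgeR p under 0.05 was found in 0 of them, against 6.07% of all tested genes. Beside NEAT1, FRMD8, an adaptor of membrane protein shedding 9.25 kb away, had 52.9 CPM in NC 1, 27.9 in NC 2, and 61.4 and 57.8 in COL8A1. NC 2 was thus the lowest library for FRMD8 and for MYC and the highest for NEAT1. The smallest p among neighbours was that of TIGD3, with 16 and 30 counts in NC and 47 and 43 in COL8A1 (log2 fold change 1.09, SE 0.424, edgeR adjusted p = 0.816). Near MALAT1, ZNRD2 averaged 23.9 ± 1.92 CPM in NC against 19.9 ± 0.139 in COL8A1 (SD, n = 2, log2 fold change -0.26, edgeR adjusted p = 0.826). Near H19, LSP1 had 6 and 10 counts in NC and 21 and 17 in COL8A1 (1.35, edgeR adjusted p = 0.817).

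For the 3 lncRNAs whose log2 CPM spanned over 0.5 among the libraries, the genes with the most similar profile were listed. Likeness was the root mean square distance between the profiles, each centred on its mean, over the 4 libraries. For NEAT1 these were PLCD4 (distance 0.0276) and ZC3H15 (0.0315), for H19 ZNF45 (0.0470) and FAM86C1P (0.0740), and for HOTAIRM1 PRICKLE2 (0.0189) and SPATA13 (0.0209). PRICKLE2, a planar polarity gene, stood at 12.1 and 16.6 CPM in NC and 20.5 and 19.8 in COL8A1, the order of libraries seen for HOTAIRM1. With 4 libraries and all genes of at least 5 CPM to choose from, such matches are a description only.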

How the data were processed

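Total RNA of 4 U251-MG libraries was analysed from raw read counts per gene as deposited by the authors, with no normalization. Per the submitters' processing notes, the tools were Trim Galore 0.6.9, HISAT2 2.2.1 and featureCounts (given as 0.3) with build hg38. Annotation release and strand setting were not given in the sources used here. Of 61807 lines, 1 blank domain record was left out. Total counts ran from 27923796 to 33576228.

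From these counts edgeR 4.0.16 (R 4.3.3) gave filterByExpr filtering, TMM factors (0.993 to 1.01), CPM on the scaled library sizes, and the quasi-likelihood F-test with group as the only term (2 residual degrees of freedom). P-values were adjusted by Benjamini-Hochberg over 17030 genes, with a threshold of 0.05. SE is the log2 fold change over the root of F, and the 95% intervals use 4.64 total degrees of freedom. Coordinates, exon lengths and lncRNA class came from GENCODE 29 (GRCh38, the same build), and the gene models used for counting may differ. Promoter and microRNA sequences came from RefSeq (GRCh38.p14).

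The lncRNAs and gene lists were chosen with earlier results of these data known. Named were the 8 lncRNAs, their neighbours, the 4 smallest p-values of each list, COL8A1 and the 2 nearest profiles of at least 5 CPM. Alternatives were DESeq2 1.42.0, limma-voom (limma 3.58.1), RLE factors, library size alone, no filter or 1 CPM in 2 libraries, the replicate block, each library left out, and counts of overlapping genes added. The main edgeR fit was also run on simulated counts with known folds, and the alternatives were not. Replicates were not duplicates: counts differed by a chi-square of 31.1 per gene in NC and 33.8 in COL8A1. PCR copies were counted as reads. Results of 2 neighbouring genes, and the planned sum of HOTAIRM1 with overlapping genes of both strands, are not reported here.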

Additional observations from a re-analysis of the deposited data

How the results depend on the processing

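None of the 6 tested lncRNAs was called under any alternative run. Over all genes the number called was 2 and became 17 with no low-count filter, 180 with DESeq2 and 1 with the replicate block, and it ran from 0 to 3 when each library was left out, which leaves a lone library assumed to vary like the other group. Same-numbered libraries did not deviate together (correlation -0.04 over 17030 genes), so the numbers were not taken as pairs, and GAS5 under the replicate block differed by -0.27 on the log2 scale (edgeR adjusted p = 0.936). Of 50 named genes, 4 changed sign when a library was left out: H19 (-0.74 to 0.40; 0.40 without NC 2, 0.02 without COL8A1 1), NEAT1 (-0.34 to 0.29; 0.29 without NC 2, 0.11 without COL8A1 2), MALAT1 (-0.17 to 0.049, the latter without COL8A1 2) and CDH5 (-0.060 to 0.32, the former without COL8A1 1). Their causes were not tested. None changed sign under the other alternatives. Of 12 list medians, 7 moved when a library was left out and 1 otherwise. The counts of overlapping records, added on the same strand or to MALAT1 from TALAM1, were chosen after seeing the data. HOTAIR and MEG3 were limited by depth.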

Other observations

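OIP5-AS1, a cytoplasmic lncRNA of the second glioma list that was chosen here after its values were seen, had 6184 counts in NC 1 against 750 in NC 2, 883 in COL8A1 1 and 593 in COL8A1 2. On the CPM scale these were 201, 22.2, 27.8 and 21.3, so a single library set its log2 fold change of -2.19 (edgeR adjusted p = 0.835). Among the 8 lncRNAs described, NC 1 was the lowest library for NEAT1, HOTAIRM1 and H19 and the highest for GAS5, PVT1 and HOTAIR.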
